A study of Homo sapiens with 5 samples.

Results

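The 10 genes described here encode cytosolic aminoacyl-tRNA synthetases, measured in LNCaP cells after 6 h with celastrol or with its solvent DMSO. They are AARS1, CARS1, EPRS1, GARS1, IARS1, MARS1, NARS1, SARS1, WARS1 and YARS1, taken by gene symbol in the platform annotation. The list was made with earlier results of these data known. All 10 were on the array, by 16 of 22215 probe sets and as 10 of 12165 genes. LNCaP is a human prostate cancer cell line that responds to androgen, and celastrol is a triterpenoid compound from thunder god vine. There were 2 arrays of cells given celastrol at 1.25 µM and 3 of cells given DMSO, all grown in RPMI with 10% serum and lysed after 6 h. The labels call the arrays of a group biological replicates and do not say whether these came from separate cultures.

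An aminoacyl-tRNA synthetase joins an amino acid to its tRNA, the step that supplies the ribosome and sets the reading of the genetic code. Most amino acids have a cytosolic enzyme and a separate mitochondrial one, both encoded in the nucleus, and the enzymes fall into classes I and II by the fold of their catalytic domain. Several cytosolic enzymes are held in a multisynthetase complex. In mammalian cells many cytosolic synthetase genes are known targets of ATF4, the transcription factor of the integrated stress response, whose translation goes up when eIF2 is phosphorylated. ATF4 binds, as a dimer with C/EBP family proteins, to composite sites called C/EBP-ATF response elements.

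The array labelled DMSO replicate 3 did not resemble the other 4. Its Pearson correlation with each of them across probe sets was 0.843 to 0.844, against 0.994 to 0.998 among the others. Relative to the mean of DMSO replicates 1 and 2, all 9 tested markers of luminal prostate cells were over 2-fold lower on it. Of 10 tested leukocyte markers, 9 were over 2-fold higher. Among all 8108 genes tested, 1459 were over 2-fold lower and 953 over 2-fold higher. The filter on dim probe sets used the mean over all 5 arrays and kept 10 of 13 measured leukocyte markers. A marker high on DMSO replicate 3 alone could pass it, so the leukocyte count was partly set by the filter. The correlations were taken over all probe sets, without that filter. On the other 4 arrays the luminal markers had a median level of 9.59 to 9.67 and the leukocyte markers one of 4.32 to 4.44, where dim probe sets lie. Celastrol was therefore compared with DMSO replicates 1 and 2, and DMSO replicate 3 is given apart. Levels are log2(intensity + 1), and a change is celastrol minus DMSO on that scale. The levels of different probe sets are not comparable with one another. In extracts of whole cultures, fewer cells of a kind and less RNA per cell cannot be told apart.

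Promoter sequence is shown first because several of the genes share a short motif next to their start. RefSeq promoter windows (GRCh38.p14, from 250 bases before to 50 after an annotated start) were on hand for 9 of the 10 genes, in 13 windows; YARS1 had none. The core of the C/EBP-ATF response element, TGATGNAA on either strand, was found in 6 of these 9 genes, AARS1, CARS1, GARS1, IARS1, MARS1 and NARS1. It was present in 46.2% of the 13 windows and in 3.62% of all 35116 windows. The narrower form TGATGCAA was found in 5 of the 9 genes, all of those 6 but GARS1. This form was present in 38.5% of the 13 windows and in 0.866% of all windows. The stretches below hold the match in capitals, read along the strand of the gene; TTGCATCA and TTTCATCA are matches that read as the motif on the opposite strand.
CARS1 (chr11:3057394-3057453, minus strand): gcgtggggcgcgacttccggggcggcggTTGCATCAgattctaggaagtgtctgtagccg
MARS1 (chr12:57488038-57488097, plus strand): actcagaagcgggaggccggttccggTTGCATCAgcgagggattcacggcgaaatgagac
IARS1 (chr9:92293677-92293736, minus strand): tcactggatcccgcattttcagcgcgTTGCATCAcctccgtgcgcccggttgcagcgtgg
AARS1 (chr16:70289660-70289719, minus strand): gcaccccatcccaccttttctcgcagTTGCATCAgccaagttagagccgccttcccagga
NARS1 (chr18:57621807-57621866, minus strand): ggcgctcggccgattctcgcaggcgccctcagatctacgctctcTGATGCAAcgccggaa
GARS1 (chr7:30594834-30594863, plus strand): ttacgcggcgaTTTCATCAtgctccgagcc

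The match lay close to an annotated start in most of these genes. Its first base was 2 bases before the start in CARS1, 4 in MARS1, 13 in IARS1 and 33 before the second annotated start of GARS1. The first annotated start of GARS1 lies upstream of the second. In NARS1 the match was 14 bases after the start. In AARS1 it was 187 bases upstream. EPRS1, SARS1 and WARS1 had no match in their windows. Among the other cytosolic synthetases TARS1 alone of 7 with a window held the motif. The match was 2 bases after an annotated start that lies downstream of another TARS1 start.
TARS1 (chr5:33440956-33440985, plus strand): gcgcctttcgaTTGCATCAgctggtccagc

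The heat shock element of 3 units, the site of heat shock factors, was in 0 of the 13 windows and in 0.49% of all windows. The antioxidant response element core TGACNNNGC, the site of NRF2 with small MAF proteins, was in 2 windows, those of WARS1 and of the second GARS1 start. It was in 15.4% of the 13 and in 13.3% of all windows. Neither match overlapped a C/EBP-ATF core. The motifs were chosen with results of these data known, and a match of letters does not show binding. The promoter of CARS1, the gene with the largest change below, is given at greater length (chr11:3057394-3057673, minus strand) to show where its match sits, with the match again in capitals.
CARS1: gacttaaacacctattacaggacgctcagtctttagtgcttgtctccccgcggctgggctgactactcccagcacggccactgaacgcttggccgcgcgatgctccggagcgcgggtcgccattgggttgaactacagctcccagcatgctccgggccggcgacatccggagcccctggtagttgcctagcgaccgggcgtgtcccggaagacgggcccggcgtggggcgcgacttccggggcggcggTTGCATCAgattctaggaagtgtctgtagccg

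**Figure D1:**
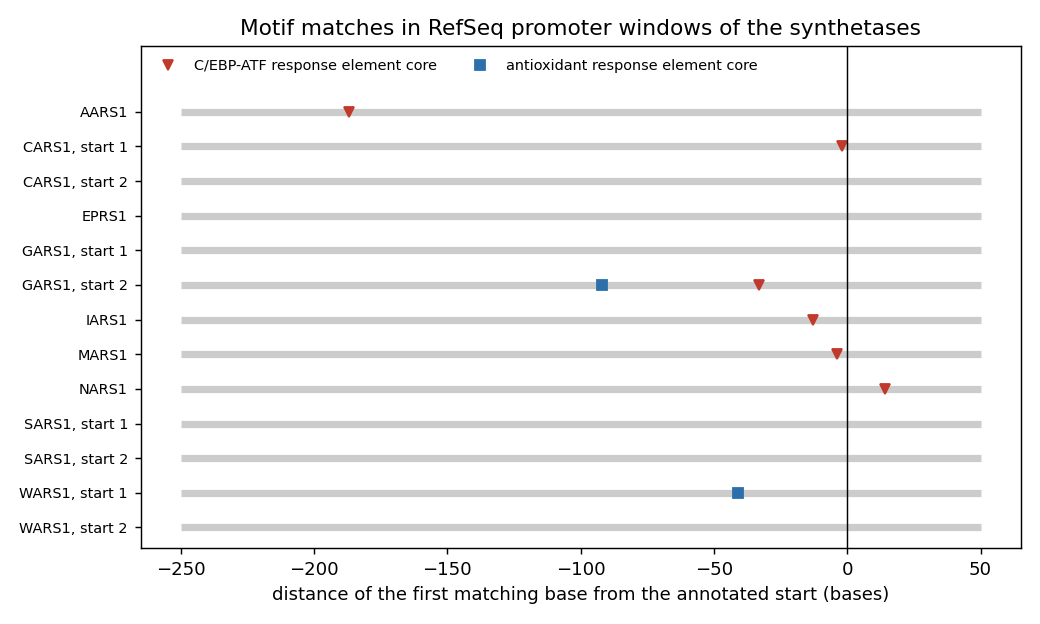
Motif matches in the 13 promoter windows of 9 synthetase genes, by distance of the first matching base from the annotated start in bases, negative upstream. Triangles mark the C/EBP-ATF core, found in 6 genes and within 33 bases of a start in 5 of them; squares mark the antioxidant response element core, found in 2 windows.

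All 10 synthetase genes had a higher mean with celastrol, by small amounts that did not pass the test. On the brightest probe set of each gene the change lay between 0.07 for EPRS1 and 0.57 for CARS1, with a median of 0.24, while the median over the 8108 genes tested was -0.02. Both celastrol arrays lay above both DMSO arrays for 10 of 10 genes, as they did for 16.4% of all genes. A change above 0 was found for 42.7% of all genes. The 10 were listed with earlier results of these data known, so this count does not stand as evidence about the family. Of the 8 other measured cytosolic synthetases, 2 had both celastrol arrays above both DMSO arrays. By limma with Benjamini-Hochberg adjustment 0 of 10 passed the threshold of 0.05, against 1.06% of all genes (0.58% higher and 0.481% lower), and the smallest adjusted p among the 10 was 0.0795. Unadjusted, limma gave 7 of the 10 a p under 0.05, all higher, against 20.1% of all genes (7.7% higher and 12.4% lower). That count was 4 without celastrol replicate 1, 6 without celastrol replicate 2, 2 without DMSO replicate 1 and 3 without DMSO replicate 2, and the 10 changes were above 0 in each of these cases. Such a fit has 1 array in a group and takes the spread from the other group, with fewer degrees of freedom than the fit on 4 arrays. Of the 16 probe sets, 14 had both celastrol arrays above both DMSO arrays, against 16.1% of all probe sets, and 0 passed the test, against 0.975%. All 16 passed the filter on dim probe sets, 15 of them with levels of 7.58 or more on the 4 arrays, far above its limit of 4.61.

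Among enzymes that act outside the multisynthetase complex, CARS1 and GARS1 stood furthest apart between groups. CARS1, which charges tRNA with cysteine, read 10.60 and 10.48 on the celastrol arrays, against 9.88 and 10.07 on DMSO replicates 1 and 2. Its mean was 10.5 ± 0.0839 with celastrol and 9.97 ± 0.131 with DMSO (SD, n = 2 each). The groups did not overlap, and the gap between them was wider than the spread inside either. The change of 0.57 (SE 0.0914) is a fold of 1.48, with a limma adjusted p of 0.116. A second CARS1 probe set, 202402_s_at, read 8.26 and 8.12 with celastrol, against 7.63 and 7.58 with DMSO, a change of 0.59 (SE 0.0643, limma adjusted p = 0.0777). Both probe sets of CARS1 thus gave nearly the same change from different levels.

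GARS1, the glycine enzyme, also serves mitochondria from the same gene. It read 11.39 and 11.35 with celastrol, against 10.84 and 10.95 with DMSO. The celastrol arrays lay close together and well above both DMSO arrays. The change was 0.48 (SE 0.0538), a fold of 1.39, with a limma adjusted p of 0.0795. GARS1 and CARS1 passed the threshold after quantile normalization (limma adjusted p = 0.0399 and 0.0476), and GARS1 also after median centring (adjusted p = 0.0479), and the changes of the 2 genes lay between 0.47 and 0.59 under these normalizations.

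AARS1, the alanine enzyme, read 11.14 and 11.19 with celastrol, against 10.81 and 10.91 with DMSO. SARS1, which charges serine onto its own tRNA and onto that for selenocysteine, read 10.55 and 10.45 with celastrol, against 10.23 and 10.19 with DMSO. For both genes the groups were clear of each other, with changes of 0.30 (SE 0.0498) and 0.28 (SE 0.0505) and limma adjusted p of 0.119 and 0.128. NARS1, the asparagine enzyme, read 10.95 and 10.84 with celastrol, against 10.63 and 10.81 with DMSO. The lower celastrol array of NARS1 and the higher DMSO array nearly met, and its change was 0.18 (SE 0.0901, limma adjusted p = 0.455).

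WARS1, the tryptophan enzyme, is also known as a gene induced by interferon gamma. Its probe set 200629_at read 9.33 and 9.17 with celastrol, against 9.01 and 9.00 with DMSO. The DMSO arrays coincided and the celastrol arrays lay above them at some distance from each other, with a change of 0.25 (SE 0.0675, limma adjusted p = 0.217). Its other probe set, 200628_s_at, had a change of 0.16 (SE 0.0393). YARS1, the tyrosine enzyme, read 10.07 and 9.94 with celastrol, against 9.82 and 9.90 with DMSO. Its nearest arrays of opposite groups were closer together than arrays of the same group, and the change was 0.14 (SE 0.0645, limma adjusted p = 0.399).

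Of the 3 genes whose enzymes sit in the multisynthetase complex, IARS1 and MARS1 had clear gaps and EPRS1 a slight one. IARS1, the isoleucine enzyme, read 11.14 and 11.07 with celastrol, against 10.90 and 10.84 with DMSO, a change of 0.23 (SE 0.0468, limma adjusted p = 0.148). The gap between the groups of IARS1 was wider than the distance between its replicates.

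MARS1, the methionine enzyme, had 3 probe sets. The brightest, 201475_x_at, belongs to a class whose probes can match related sequences, and read 9.72 and 9.83 with celastrol, against 9.51 and 9.55 with DMSO. Probe set 213671_s_at read 9.30 and 9.31 with celastrol, against 8.98 and 8.97 with DMSO, with a change of 0.33 (SE 0.0266). It had the smallest adjusted p of all 16 probe sets, 0.0583 by limma, and replicates that nearly coincided. The third, 213672_at, lay at 4.82 to 4.86 on the 4 arrays, near the dim limit, and showed no difference that could be measured (change of 0.02, SE 0.0303). In the RefSeq annotation MARS1 overlaps its neighbour DDIT3 on chromosome 12, the gene of the stress factor CHOP, which is described below.

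EPRS1 encodes a fused enzyme for glutamate and proline, with a class I and a class II part. Its brightest probe set read 10.94 and 10.90 with celastrol, against 10.85 on both DMSO arrays, a change of 0.07 (SE 0.0297, limma adjusted p = 0.389). The other EPRS1 probe sets disagreed in size. Probe set 200843_s_at read 10.10 and 10.08 with celastrol, against 9.88 and 9.84 with DMSO, with a change of 0.23 (SE 0.0319, limma adjusted p = 0.0997). Probe set 200841_s_at read 10.10 and 10.13 with celastrol, against 9.86 and 10.26 with DMSO, so its groups overlapped.

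The order of the changes was CARS1, GARS1, AARS1, SARS1, WARS1, MARS1, IARS1, NARS1, YARS1 and EPRS1. Neighbours in that order differed by less than 2 standard errors of their difference, except GARS1 and AARS1, which lay 0.18 apart (SE 0.0733). The median change was 0.29 for the 4 genes of class II enzymes, from 0.18 to 0.48, and 0.24 for the 5 of class I, from 0.14 to 0.57, without the fused EPRS1. It was 0.28 for the 7 genes of free enzymes and 0.23 for the 3 in the complex. The ranges of these groups overlapped.

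**Figure D2:**
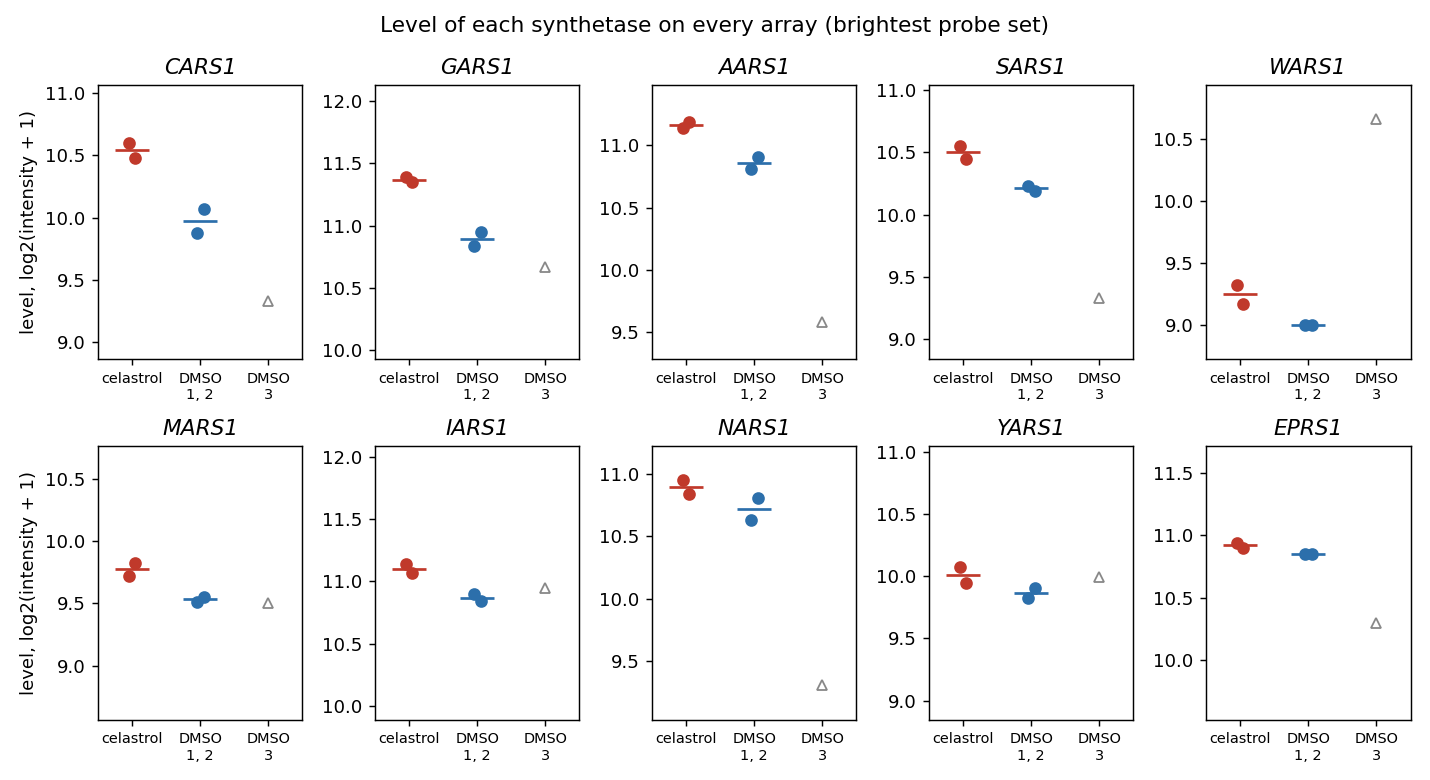
Level of each synthetase gene on every array as log2(intensity + 1), on its brightest probe set, ordered by change. Filled points are celastrol and DMSO replicates 1 and 2 with a bar at the mean of each pair, open triangles are DMSO replicate 3, and each panel spans the same height; celastrol points lie above both DMSO points in all 10 panels.

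**Figure D3:**
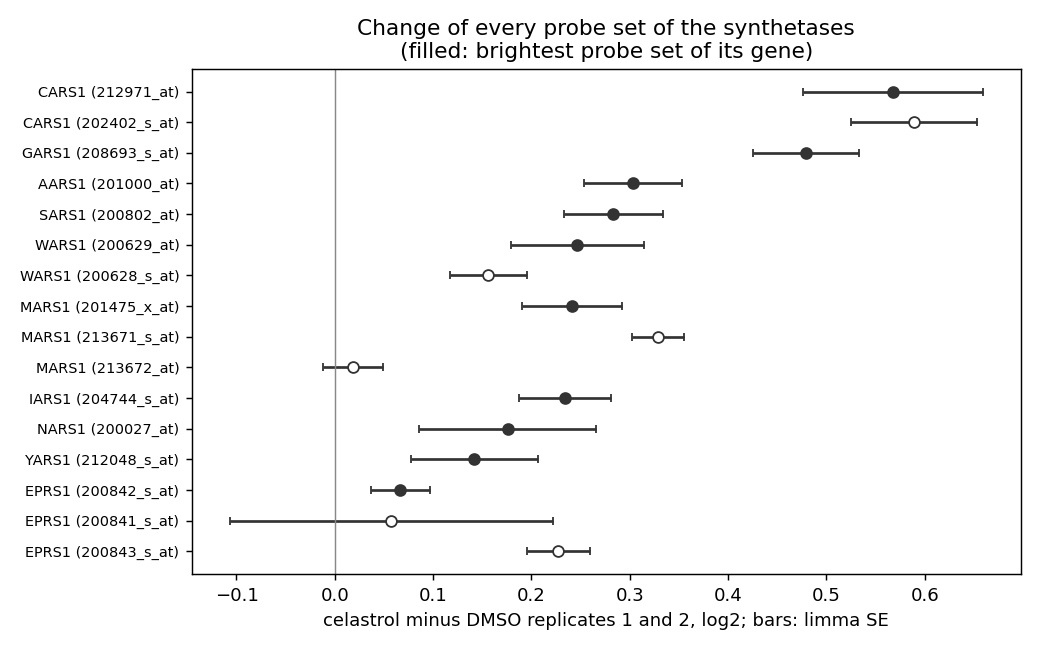
Change of all 16 probe sets, celastrol minus DMSO replicates 1 and 2 in log2 units, with the limma standard error as bars and the brightest probe set of each gene filled. CARS1 and GARS1 lie at 0.48 to 0.59, and the dim MARS1 probe set 213672_at lies at 0.02.

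The remaining cytosolic synthetases give the other members of the family, and 8 of 11 listed were measured. Their median change was -0.02, with 3 above 0 and 5 below. TARS1, the threonine enzyme, whose window holds the C/EBP-ATF core, read 10.68 and 10.55 with celastrol, against 10.17 and 10.20 with DMSO. Its groups were clear of each other, with a change of 0.43 (SE 0.0599, limma adjusted p = 0.0988). LARS1, the leucine enzyme, had a change of 0.27 (SE 0.0543, adjusted p = 0.149). At the other end VARS1, the valine enzyme, had a change of -0.10 (SE 0.181) and QARS1, the glutamine enzyme, one of -0.11 (SE 0.0613). By limma 0 of 8 passed after adjustment, against 1.06% of all genes. TARS1 and LARS1 had an unadjusted limma p under 0.05, 2 of 8, both higher. Among all genes the share was 7.7% higher and 20.1% in either direction. HARS1, FARSA, RARS1 and KARS1 lay between -0.06 and 0.00. Of the scaffold proteins of the complex, AIMP1 had a change of 0.10 (SE 0.0901, limma adjusted p = 0.574).

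Mitochondrial synthetases lay on the lower side, and 10 of 11 measured genes passed the dim filter. Their median change was -0.11, with 2 above 0 and 8 below. Both celastrol arrays lay below both DMSO arrays for 5 of the 10, against 26.5% of all genes, and 0 of 10 passed by limma after adjustment, against 1.06% of all genes. An unadjusted limma p under 0.05 went to 4 of the 10, all lower, against 12.4% of all genes lower. WARS2, the mitochondrial tryptophan enzyme, read 6.64 and 6.40 with celastrol, against 7.16 and 6.99 with DMSO, a change of -0.55 (SE 0.121, limma adjusted p = 0.161). HARS2, the mitochondrial histidine enzyme, read 7.42 and 7.57 with celastrol, against 7.96 and 8.06 with DMSO, a change of -0.51 (SE 0.0773, limma adjusted p = 0.108). For both genes the groups were well apart. HARS2 is the direct neighbour of HARS1 on chromosome 5, and HARS1 had a change of 0.00 (SE 0.0263). SARS2 and FARS2 were the highest of this list, at 0.09 (SE 0.0949) and 0.00 (SE 0.0393).

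In 9 cases a cytosolic gene and its mitochondrial counterpart were both measured, and the cytosolic change was the higher in all 9. Among them 6 have a cytosolic gene of the 10. WARS1 and WARS2 differed most of these 6, by 0.80, and CARS1 and CARS2 by 0.58. SARS1 and SARS2 differed least, by 0.19. These differences were not tested, and the pairs share the same 4 arrays. The 10 were listed with earlier results of these data known. All 10 had changes above 0 and 8 of the 10 mitochondrial genes had changes below 0. The count of 9 therefore largely restates these lists and is no separate evidence.

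**Figure D4:**
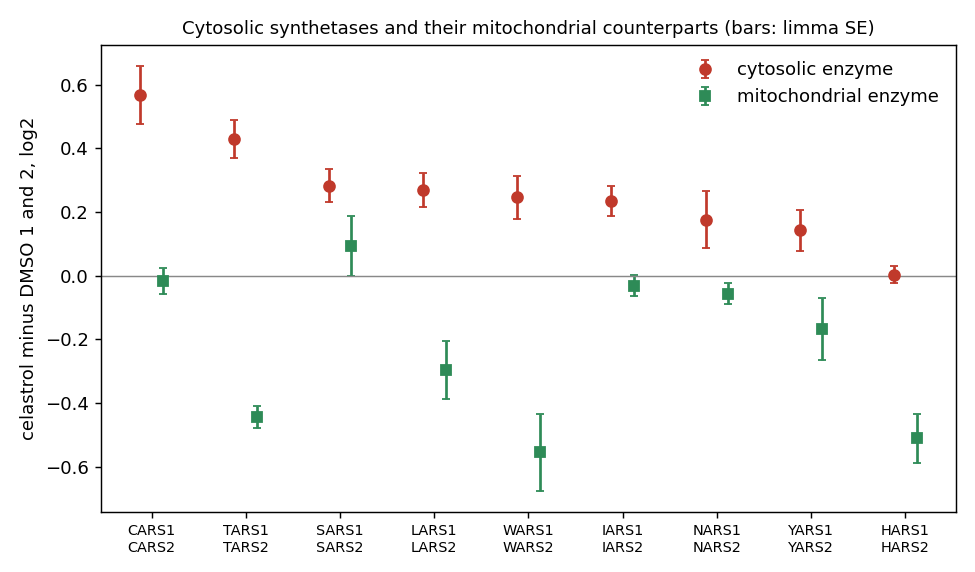
Changes of 9 cytosolic synthetase genes (circles) and of their mitochondrial counterparts (squares), celastrol minus DMSO replicates 1 and 2 in log2 units with limma standard errors. The circle lies above the square in all 9 pairs, by 0.19 for SARS1 and SARS2 and by 0.87 for TARS1 and TARS2.

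Other genes of the ATF4 pathway had larger changes at their upper end. Of 16 measured, 7 rose by limma after adjustment and 0 fell, against 0.58% and 0.481% of all genes. The median change was 0.86. With no dim filter, with a replicate block, on all 5 arrays or with any 1 of the 4 arrays left out, 0 of the 16 passed. DDIT3 read 9.20 and 9.09 with celastrol, against 7.00 and 7.20 with DMSO, and rose by 2.05 (SE 0.0927, limma adjusted p = 0.0369). SLC7A11, the cystine transporter, rose by 1.71, DDIT4, an inhibitor of mTORC1 signalling, by 1.57 and CHAC1, an enzyme that degrades glutathione, by 1.40. SLC3A2, the heavy chain of amino acid transporters, rose by 1.35, and the C/EBP factors CEBPB and CEBPG by 0.93 and 0.80. The limma adjusted p of these 7 lay between 0.03 and 0.0369. ATF3, a factor induced by ATF4, had a change of 1.98 that did not pass (SE 0.167, limma adjusted p = 0.0601). ATF4 itself read 12.26 and 12.16 with celastrol, against 11.51 and 11.59 with DMSO, a change of 0.66 that did not pass (SE 0.0561, limma adjusted p = 0.0608). ASNS, the asparagine synthetase gene and a well-known target of ATF4, had a change of 0.56 (SE 0.0726, limma adjusted p = 0.0919), close to CARS1. PPP1R15A, the eIF2 phosphatase subunit, and VLDLR, a lipoprotein receptor, were the lowest, at 0.09 and 0.00, near the dim limit. This list was set up with results of these data known.

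**Figure D5:**
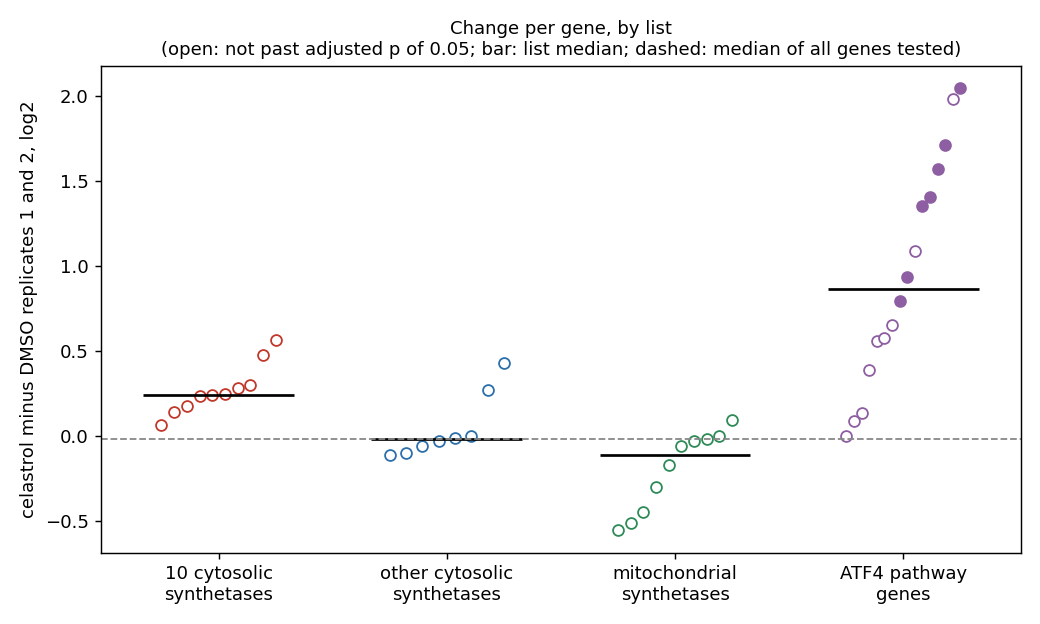
Change per gene in log2 units, celastrol minus DMSO replicates 1 and 2, for the 10 synthetases, the 8 other cytosolic ones, 10 mitochondrial ones and 16 genes of the ATF4 pathway. Filled points passed an adjusted p of 0.05, bars are list medians (0.24, -0.02, -0.11 and 0.86) and the dashed line is the median of all genes tested.

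On DMSO replicate 3 the synthetases did not move together. Relative to the mean of DMSO replicates 1 and 2 their median difference was -0.39, with 3 of 10 above that mean. NARS1 read 9.31 on it, a difference of -1.42, and AARS1 9.58, a difference of -1.28. WARS1 went the other way and read 10.66, 1.65 above the other DMSO arrays. On this array 17 of 17 tested interferon response genes were over 2-fold higher, as were 953 of all 8108 genes tested. The dim filter kept 17 of 20 measured interferon genes by a mean that includes this array, so their count was partly set by the filter. The median level of interferon genes was 7.97 there and 4.55 to 4.70 on the other arrays; their part in the WARS1 level was not tested. IARS1 and YARS1 lay 0.08 and 0.13 above the other DMSO arrays. With DMSO replicate 3 in the comparison, 9 of 10 changes were above 0, the median change was 0.40, and that of WARS1 became -0.30.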

How the data were processed

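Total RNA was taken with Trizol and labelled as biotinylated cRNA for Affymetrix arrays, per the labels' protocols. Each value the authors deposited is the intensity of a probe set on an array, not on a log scale. RMA appears in the submitters' processing notes; its version is not given in the sources used here. The description field of the DMSO samples speaks of celastrol; titles and treatment protocols were followed. The 22215 probe sets comprise 19724 that name 1 gene, 568 with several genes and 1923 without a name here.

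Intensities were taken as log2(value + 1). The dimmest 40% of probe sets, by mean over all 5 arrays, were left out, which kept 13329 probe sets and 8108 genes, each gene standing for its brightest probe set naming it alone. Limma (version 3.58.1 in R 4.3.3; lmFit and eBayes, two-sided) was fitted on 4 arrays with 2 residual degrees of freedom, and p-values were adjusted by Benjamini-Hochberg over the 13329 probe sets with a threshold of 0.05. The fit was tested on simulated data. The number of arrays limits the precision.

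The members, gene lists, motifs, filter and the choice of 4 arrays were made with earlier results of these data known. The 10 members are named throughout. From each other list, the genes that passed and the 2 highest and 2 lowest are named, and so are the 5 genes with the most similar profile. Further names (HARS1, FARSA, RARS1, KARS1, PTPRC, CD74, CD37, CD53, the mitochondrial counterparts in pairs, ATF4 and ASNS) were added after their values were seen. Alternatives covered filters, normalization, pseudocount, variance model, the replicate number as a block, averaged probe sets, all 5 arrays and leaving out each array.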

Additional observations from a re-analysis of the deposited data

Results flagged for a closer look

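WARS1 stood out on DMSO replicate 3, the array that the comparison leaves out. Its probe set 200629_at read 10.66 there, against 9.01 and 9.00 on DMSO replicates 1 and 2, and its probe set 200628_s_at read 10.40, against 8.97 and 8.89. No other synthetase of the 10 was over 2-fold higher on that array than on both other DMSO arrays.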

How the results depend on the processing

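The median change of the 10 genes stayed above 0 under all 15 alternatives, from 0.21 to 0.40, and left the spread between replicates only with all 5 arrays, at 0.40 (0.21 to 0.27 with 1 of the 4 arrays left out). All 10 changes were above 0 in each alternative except all 5 arrays, where WARS1 reversed to -0.30; DMSO replicate 3, high for WARS1, enters the DMSO mean there. Counts of calls depended on the setting. The count over all genes, 86, was 2 with no filter, 20 with a filter of 20%, 0 on all 5 arrays, 272 after quantile normalization, 194 after median centring, 159 with averaged probe sets and 0 to 0 with 1 array left out. Of the 10 genes, 2 passed after quantile normalization and 1 after median centring, and of their 16 probe sets 3, 3 and, with log2(value + 16), 1; elsewhere 0 did. Of the other cytosolic genes 1, TARS1, passed after quantile normalization, and of the mitochondrial ones 1, TARS2, after quantile normalization, median centring and averaging of probe sets. Quantile normalization and median centring moved the median of all genes from -0.02 to 0.00. The cause of these shifts was not tested. With a replicate block the count was 0 for all genes and for the 10. The replicate numbers carried no visible pairing: across probe sets, replicate 1 minus replicate 2 of celastrol and the same difference of DMSO had a correlation of r = -0.0197.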

Other observations

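Of 11 measured genes of eIF2, its kinases and its exchange factor, 0 passed by limma after adjustment, against 1.06% of all genes. The median change was -0.01. An unadjusted limma p under 0.05 went to 2 of the 11, both higher. Among all genes the share was 7.7% higher and 20.1% in either direction. EIF2AK3, the kinase PERK of the endoplasmic reticulum, read 6.16 and 6.04 with celastrol, against 5.42 and 5.53 with DMSO, a change of 0.62 (SE 0.0698, limma adjusted p = 0.0792). EIF2S2, the beta subunit of eIF2, read 11.45 and 11.44 with celastrol, against 11.09 and 11.15 with DMSO, a change of 0.33 (SE 0.0381, limma adjusted p = 0.0820). EIF2S3, its gamma subunit, and EIF2B1, a subunit of the exchange factor eIF2B, were lowest at -0.27 (SE 0.242) and -0.09 (SE 0.0722).

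The 5 genes outside the family whose centred profile over the 4 arrays lay nearest to the mean profile of the 10 were CD79B, ZNF160, DHX32, CREBBP and HSPD1, at Euclidean distances of 0.0209 to 0.0270 on the log2 scale. Their changes were 0.27, 0.29, 0.26, 0.27 and 0.28. CD79B was near the dim limit on these arrays, at 4.22 to 4.56, and at 7.57 on DMSO replicate 3.

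Among cell type markers, the luminal gene TMPRSS2 fell by 1.08 (limma adjusted p = 0.0369), 1 of 9 tested, against 1.06% of all genes. Unadjusted, limma gave a p under 0.05 for 6 of these 9, 2 higher and 4 lower, against 20.1% of all genes, and both celastrol arrays lay below both DMSO arrays for 7 of 9, against 26.5%. KRT18 and KRT8 were the highest of that list at 0.27 and 0.11, and KLK3 the second lowest at -0.65. Of 10 leukocyte markers 0 passed, against 1.06% of all genes. CD79B and CD79A were highest at 0.27 and 0.12, and LCP1 and MS4A1 lowest at -0.15 and -0.29. CD79B, CD79A, MS4A1, PTPRC, CD74, CD37 and CD53 lay below the dim limit of 4.61 on all 4 arrays and passed the filter through DMSO replicate 3. Of 17 interferon response genes 0 passed, against the same share of all genes. GBP2 and OAS2 were highest at 0.21 and 0.17, and IRF1 and OAS3 lowest at -0.14 and -0.23. The interferon genes had median levels of 4.55 to 4.70 on the 4 arrays, near that limit. An unadjusted limma p under 0.05 went to 2 of these 17 and 3 of the 10 leukocyte markers, against 20.1% of all genes. LCP1, counted among those 3, was bright, at 9.24 to 9.41 on the 4 arrays. For genes near or below the dim limit these counts concern dim signal and say little about celastrol.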
